A study of Mus musculus with 594 samples.

Results

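Sst, Npy, Nmb, Cga and Insl6 encode peptide hormones or hormone subunits other than glucagon and insulin, the hormones for which the mouse pancreatic tumour lines αTC1 and βTC3 are used. These 5 genes of the 11807 measured were chosen by name, with their values in the same arrays already known, and each is read by 1 probe set. Cells of αTC1, a glucagon-producing line, and βTC3, an insulin-producing line, were given 1 of 29 chromatin-targeting compounds in DMSO, or DMSO alone, and lysed after 1, 6 or 24 h. RNA was hybridised to Affymetrix HT arrays, 299 for αTC1 and 295 for βTC3. The DMSO groups held 14 arrays of αTC1 at each time, and 12, 10 and 12 arrays of βTC3 at 1, 6 and 24 h. A compound group held 3 arrays, except that in αTC1 at 24 h there were 2 arrays for each of SAHA, scriptaid, CI-994, BRD-K62233722 and BRD-K92415738, and 4 for chaetocin.

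Each compound was used at 1 dose. The histone deacetylase inhibitors comprised 8 hydroxamic acids, namely SAHA at 1.3 µM, LBH-589 at 0.015 µM, scriptaid at 2 µM, trichostatin A at 0.22 µM, CRA-024781 at 1.5 µM, ITF-2357 at 10 µM, pyroxamide at 10 µM and PXD101 at 2.4 µM. The ortho-amino anilides were MS-275 at 2.9 µM, CI-994 at 10 µM and MGCD-0103 at 1.1 µM, and the cyclic tetrapeptides were apicidin at 1.4 µM and HC-toxin at 0.12 µM. Histone lysine methyltransferases were the target of BIX-01294 at 10 µM and chaetocin at 1.7 µM, and arginine methyltransferases that of AMI-1 at 10 µM. The inhibitors of DNA methylation, zebuarine, RG-0108 and 5-azadeoxycytidine, were each at 10 µM. A further 10 compounds carried code names only: BRD-K17311666 at 4.3 µM, BRD-K62233722 at 3.7 µM, BRD-K22912318 at 5 µM, BRD-K92415738 at 3.2 µM, BRD-K90919562 at 4.1 µM, BRD6929 at 0.91 µM, BRD-A94377914 at 3 µM, and BRD8451, BRD5298 and BRD9773 at 10 µM. Both lines came from tumours of mice in which a viral oncogene was driven by the glucagon or the insulin promoter. Nothing in the labels says that the arrays of a group came from separate cultures, so p-values measure only the spread between these arrays, which may be technical. Doses differ between most compounds, and their values are set side by side without a comparison.

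Peptide hormones are made as larger precursors that are cut by prohormone convertases in secretory granules and released when the cell is stimulated. In the islet each hormone gene is largely kept to its own cell type: glucagon to alpha cells, insulin to beta cells and somatostatin to delta cells. Histone deacetylase inhibitors raise the acetylation of chromatin and can switch genes on that the cell type does not normally use.

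Upstream sequence from RefSeq was matched for 4 of the 5 genes, all but Insl6, and is shown because these genes start from very different levels. The stretches are the 250 bases before the start site in build GRCm38.p6, at chr16:23890845-23891094 on the minus strand for Sst, chr4:34893529-34893778 on the plus strand for Cga, chr7:80905063-80905312 on the minus strand for Nmb, and chr6:49822460-49822709 on the plus strand for Npy. Capitals mark the motif TGANGTCA, close to the cAMP response element, in Sst and Cga, and the GC box GGGCGG in Nmb and Npy.
Sst promoter: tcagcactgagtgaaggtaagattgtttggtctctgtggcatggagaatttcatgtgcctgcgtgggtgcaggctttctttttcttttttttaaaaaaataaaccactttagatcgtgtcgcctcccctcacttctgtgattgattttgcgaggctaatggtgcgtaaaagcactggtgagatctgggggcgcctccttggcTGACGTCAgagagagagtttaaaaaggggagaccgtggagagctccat
Cga promoter: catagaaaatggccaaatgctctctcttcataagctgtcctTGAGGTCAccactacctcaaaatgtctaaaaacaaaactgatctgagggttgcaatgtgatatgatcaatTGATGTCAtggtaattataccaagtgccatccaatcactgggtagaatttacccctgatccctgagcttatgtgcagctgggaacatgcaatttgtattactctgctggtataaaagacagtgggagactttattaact
Nmb promoter: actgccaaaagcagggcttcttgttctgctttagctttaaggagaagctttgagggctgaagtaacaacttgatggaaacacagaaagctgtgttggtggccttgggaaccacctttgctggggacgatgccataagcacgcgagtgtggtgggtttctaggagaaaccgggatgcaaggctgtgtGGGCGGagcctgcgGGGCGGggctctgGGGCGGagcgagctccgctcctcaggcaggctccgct
Npy promoter: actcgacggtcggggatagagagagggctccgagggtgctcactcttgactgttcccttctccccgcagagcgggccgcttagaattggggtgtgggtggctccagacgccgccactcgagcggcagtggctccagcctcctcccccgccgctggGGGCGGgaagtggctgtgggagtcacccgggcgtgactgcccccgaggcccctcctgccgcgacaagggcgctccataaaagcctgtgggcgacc
Both strands were searched, and the motifs did not overlap one another. The letters TGANGTCA stood once before Sst, as TGACGTCA starting 48 bases before the start site, and at 2 places before Cga, as TGAGGTCA at 209 bases and TGATGTCA at 139 bases. They were found before neither Nmb nor Npy, and in 7.49% of 32851 promoters of the same length. GGGCGG stood at 3 places before Nmb, from 64 to 37 bases before the start, and at 1 place before Npy, while 32.7% of promoters hold it. The letters TATAAA, held by 12.4% of promoters, were found before Cga alone among the 4, 30 bases before its start. CCAAT, held by 33.8%, was found before Cga and, on the opposite strand, before Npy. Such matches describe the letters only, and a missing match says nothing of the factors.

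The lines were first set side by side in DMSO, as log2 of the array intensity. Sst, which encodes the delta cell hormone somatostatin that restrains insulin and glucagon release, was high in βTC3 and low in αTC1. Over all 3 times its lowest, median and highest levels were 12.42, 12.69 and 12.98 in βTC3 (n = 34) and 3.30, 4.03 and 6.27 in αTC1 (n = 42). Npy, which encodes the appetite-stimulating neuropeptide Y, gave 12.74, 12.97 and 13.15 in βTC3 and 3.15, 3.91 and 6.87 in αTC1. The lines did not overlap for either gene, and the highest αTC1 arrays were DMSO arrays at 1 h. The highest value of any gene on any array was 13.7, so both genes lay near the top of the range in βTC3, and whether the array could register a rise from there was not tested.

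The other genes were lower. Nmb, which encodes the bombesin-like peptide neuromedin B, gave 4.49, 5.10 and 5.80 in βTC3 and 3.29, 3.59 and 4.17 in αTC1. Insl6, which encodes an insulin and relaxin family peptide made mainly in the testis, gave 3.59, 4.08 and 4.61 in βTC3 and 2.53, 2.95 and 3.43 in αTC1. At each time every βTC3 array of these genes lay above every αTC1 array. Cga, which encodes the common alpha subunit of the pituitary hormones LH, FSH and TSH, gave 2.59, 2.85 and 3.25 in βTC3 and 2.59, 2.93 and 3.36 in αTC1, so here the lines overlapped. The labels number 7 batches, without saying what a batch was. Within each, the mean of βTC3 minus that of αTC1 ran from 8.01 to 9.10 for Sst and 8.41 to 9.33 for Npy. For Nmb it ran from 0.95 to 1.94, for Insl6 from 1.00 to 1.31 and for Cga from -0.14 to 0.07. In these bulk samples fewer cells of a type and less RNA per cell cannot be told apart.

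**Figure D1:**
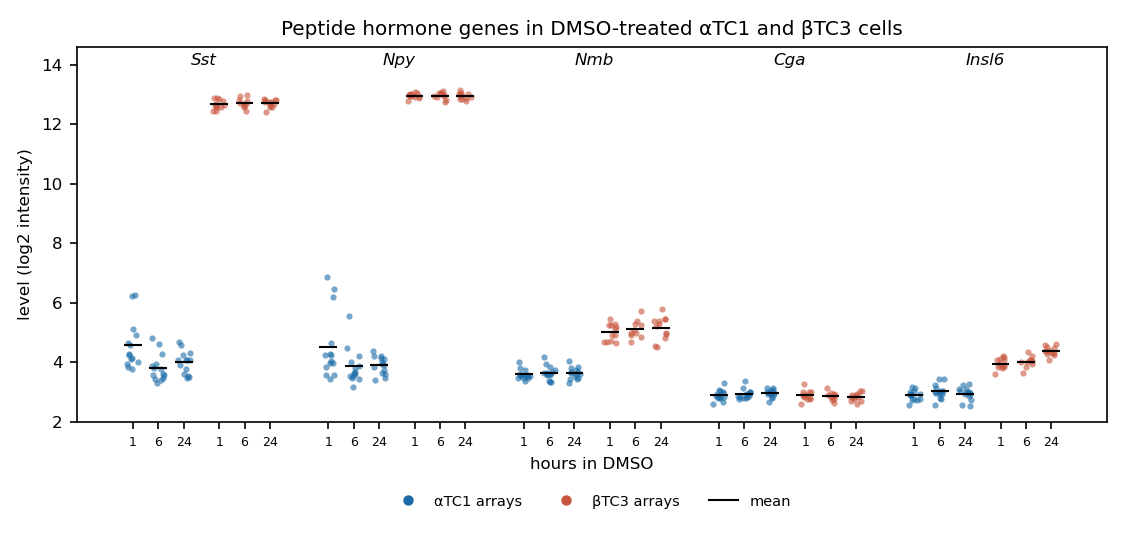
Levels of the 5 genes in DMSO (y axis, log2 intensity) at 1, 6 and 24 h (x axis) in αTC1 and βTC3, 1 point per array with the group means marked. Sst and Npy lie at 12.42 or above in βTC3, Cga lies between 2.59 and 3.36 in both lines, and the Insl6 points of βTC3 stand higher at 24 h than at 1 h.

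Markers were checked against the labels of the lines. In DMSO Ins2 had a mean of 13.24 in βTC3 and 4.53 in αTC1, Pdx1 one of 9.37 and 4.09, and Gcg one of 9.24 and 12.43. The glucose transporter gene Slc2a2, also a beta cell marker, was low in both, at 3.04 and 2.88, as was the delta cell factor gene Hhex, at 3.29 and 3.55. The median gene's level was 4.97 in βTC3 and 4.89 in αTC1, a rough guide only, since probe sets respond differently. All 5 measured alpha cell markers lay above it in αTC1 and 3 in βTC3, and of 5 beta cell markers 4 did in βTC3 and 2 in αTC1. Of 4 delta cell markers 2 did in βTC3 (Rbp4 and Pdx1) and 1 in αTC1 (Rbp4). Rbp4 was the higher in αTC1, at 10.95 against 9.30, and Pdx1 counts in the beta cell list as well. Of 3 PP and epsilon cell markers 0 lay above the median gene in either line. None of 7 measured pituitary markers (such as Fshb and Tshb), 6 male germ cell markers (such as Ddx4 and Dazl), 5 acinar and duct markers or 6 stroma and blood markers lay above it in either line, while 4 of 6 neuron markers did.

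Change over time in DMSO was not itself used to choose the genes, and was tested with limma over all genes. The levels of the genes on these same DMSO arrays were known, however, so the p-values are not fully independent of the choice. Insl6 in βTC3 rose. Its lowest, median and highest levels were 3.59, 3.92 and 4.20 at 1 h (n = 12), 3.65, 4.02 and 4.33 at 6 h (n = 10) and 4.08, 4.38 and 4.61 at 24 h (n = 12), so that the 1 h and 24 h ranges overlapped only slightly. The change from 1 h to 24 h was 0.43 ± 0.069 on the log2 scale (SE, adjusted p = 6.98e-05, limma), where 6.64% of genes rose. In αTC1 it was 0.06 ± 0.078 (adjusted p = 0.78, limma). The difference between the lines, from a joint fit added after these values were seen, did not pass (0.37 ± 0.11, adjusted p = 0.0888, limma, where 0.559% of genes passed). None of the other 4 genes passed between 1 and 24 h in either line, where 7.28% of all genes passed in αTC1 and 10.5% in βTC3.

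Sst in αTC1 fell between 1 h and 6 h, by a log2 change of -0.76 ± 0.19 (adjusted p = 0.019, limma), where 1.33% of genes fell. Its lowest, median and highest levels were 3.76, 4.25 and 6.27 at 1 h and 3.30, 3.69 and 4.81 at 6 h (n = 14 each), and the groups overlapped. Of the 1 h arrays, 3 had the beta cell hormone gene Ins2 above 7, with Sst at 5.12, 6.23 and 6.27. Without the 4 DMSO arrays with Ins2 above 7, left out after seeing the data, the change was -0.50 and was no longer called (adjusted p = 0.0503, limma), nor was it without a batch term (adjusted p = 0.0581, limma).

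Responses to the compounds were used to choose these genes, so they are given as a description with no test. A change is the log2 difference from DMSO of the same line and time, adjusted for batch, ± SE. Within a line and time the 29 compounds share the same DMSO arrays. A rise is counted where it is at least 2-fold, a log2 change of 1, and every array lies above every DMSO array of that line and time. Over the 5 genes, 29 compounds, 3 times and both lines, 93 of 870 values met this, 62 for Insl6, 23 for Nmb, 5 for Cga, 3 for Sst and 0 for Npy. No fall of that size with every array below DMSO was found for these genes, while over all genes and compounds such falls made up 0.000876%, 1.26% and 1.91% of values at 1, 6 and 24 h in αTC1 and 0.000292%, 1.54% and 1.04% in βTC3. Low levels left little room for a fall in most of these genes. DMSO medians were 2.85 to 2.95 for Cga in both lines and Insl6 in αTC1. They were 3.59 to 4.03 for Sst, Npy and Nmb in αTC1. Of all gene values 5% lay below 2.72, so the lack of falls at such levels is not read as a trait of these genes.

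Insl6 was higher with the widest set of compounds. It met the rule with 11 of 29 compounds at 6 h and 16 at 24 h in αTC1, and with 16 at 6 h and 19 at 24 h in βTC3. Over all genes and compounds, 1.92% of values met it at 6 h and 2.37% at 24 h in αTC1, and 1.72% and 1.35% in βTC3. At 1 h it was met by 0.0073% of values in αTC1 and 0.00847% in βTC3, none of them of these 5 genes. The 11 compounds of αTC1 at 6 h were all among the 16 of βTC3, and at 24 h the lines shared 15, which is 93.8% of the αTC1 set and 78.9% of the βTC3 set.

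In βTC3 Insl6 was higher with every hydroxamic acid at 6 h. The trichostatin A arrays were at 7.63, 7.84 and 7.75, against at most 4.33 in DMSO, a change of 3.71 ± 0.15 or 13.1-fold. Insl6 in βTC3 DMSO lay at the 43.3rd percentile of all genes, and whether its probe set read above background there was not tested. The hydroxamic acids spanned 2.90 to 3.71, and apicidin (3.01 ± 0.16) and HC-toxin (2.92 ± 0.15) fell within that span. Among the 10 compounds with code names 5 met the rule at this time, from 2.82 for BRD-K22912318 to 3.41 for BRD-K92415738, and the other 5 were at 0.27 or less. Against DMSO of its own batch each trichostatin A array was higher by 3.42 to 3.81. At 1 h no compound reached 2-fold, but 6 had every array above DMSO, among them CRA-024781 at 4.84, 4.69 and 4.38 (0.83 ± 0.14).

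In αTC1 at 6 h the changes were smaller, and exceeded those of βTC3 for 2 of the 29 compounds. ITF-2357 had arrays at 6.06, 4.76 and 5.19 and a change of 2.26 ± 0.16, and the hydroxamic acids spanned 0.54 to 2.26. At 24 h ITF-2357 arrays stood at 7.26, 7.25 and 6.69, against 2.53 to 3.28 in DMSO, a change of 4.28 ± 0.24. Insl6 in αTC1 DMSO lay at the 13.5th percentile of all genes, and whether its probe set read above background there was not tested, so no fold is given. Of the other hydroxamic acids, at their own doses, pyroxamide (4.18 ± 0.25), trichostatin A (4.07 ± 0.24), CRA-024781 (4.02 ± 0.25) and PXD101 (3.93 ± 0.25) met the rule with every array above DMSO. SAHA, at 1.34 ± 0.29, met the rule as well. LBH-589 stood at 0.84 ± 0.24 and scriptaid at 0.01 ± 0.29, and neither met it. In βTC3 at 24 h ITF-2357 arrays were at 8.21, 8.21 and 8.15 (3.78 ± 0.21, or 13.7-fold).

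Insl6 met the rule with some compounds at 24 h and not at 6 h. The 3 ortho-amino anilides were at -0.08 to 0.35 in αTC1 at 6 h and at 2.78 to 3.27 at 24 h. In βTC3 they were at 0.36 to 0.86 and then at 2.90 to 2.96. MS-275 gave 4.64, 4.97 and 4.64 in βTC3 at 6 h and 7.14, 7.20 and 7.38 at 24 h, with no overlap between the times. BRD5298, BRD6929 and BRD9773 had the same order of times in both lines, reaching 2.80, 2.45 and 2.43 in βTC3 and 2.30, 1.57 and 2.16 in αTC1 at 24 h. BRD8451 met the rule at 24 h in βTC3 (1.20 ± 0.19) and was at 0.04 ± 0.25 in αTC1, a difference between lines that was not tested.

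With other compounds Insl6 met the rule at 6 h and not at 24 h. Scriptaid arrays of βTC3 stood at 6.85, 7.16 and 6.91 at 6 h and 5.12, 3.88 and 4.23 at 24 h, so that the change went from 2.94 ± 0.16 to 0.04 ± 0.19. In αTC1 scriptaid went from 1.16 ± 0.16 to 0.01 ± 0.29. BRD-K92415738 went from 3.41 ± 0.16 to 0.86 ± 0.19 in βTC3 and from 1.58 ± 0.15 to 0.13 ± 0.29 in αTC1. BRD-K90919562 met the rule at 6 h alone in αTC1, going from 1.37 ± 0.15 to 0.44 ± 0.24. HC-toxin went from 2.92 ± 0.15 to 0.76 ± 0.19 in βTC3, while in αTC1 it met the rule at both times. Chaetocin, which inhibits lysine methyltransferases, gave 5.35, 5.04 and 5.26 in βTC3 at 6 h, all above DMSO (1.18 ± 0.16), and stood at 0.19 ± 0.16 in αTC1. Zebuarine, RG-0108, 5-azadeoxycytidine, AMI-1 and BIX-01294 met the rule at no time in either line, with 24 h values from -0.29 to 0.30.

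Male germ cells are the usual source of Insl6, and their markers were read beside it. The summed log2 level of the 6 markers at 24 h was 18.09 to 19.45 in DMSO and 19.30 to 20.41 with ITF-2357 in αTC1, and 17.43 to 18.70 and 18.04 to 18.85 in βTC3. With the other αTC1 compounds of like Insl6 change it was 17.70 to 18.65 for pyroxamide, 18.50 to 19.38 for trichostatin A, 18.15 to 18.44 for CRA-024781 and 18.67 to 19.36 for PXD101, so that none of their arrays lay above the DMSO range. The part of the higher ITF-2357 sum in its Insl6 values was not tested.

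**Figure D2:**
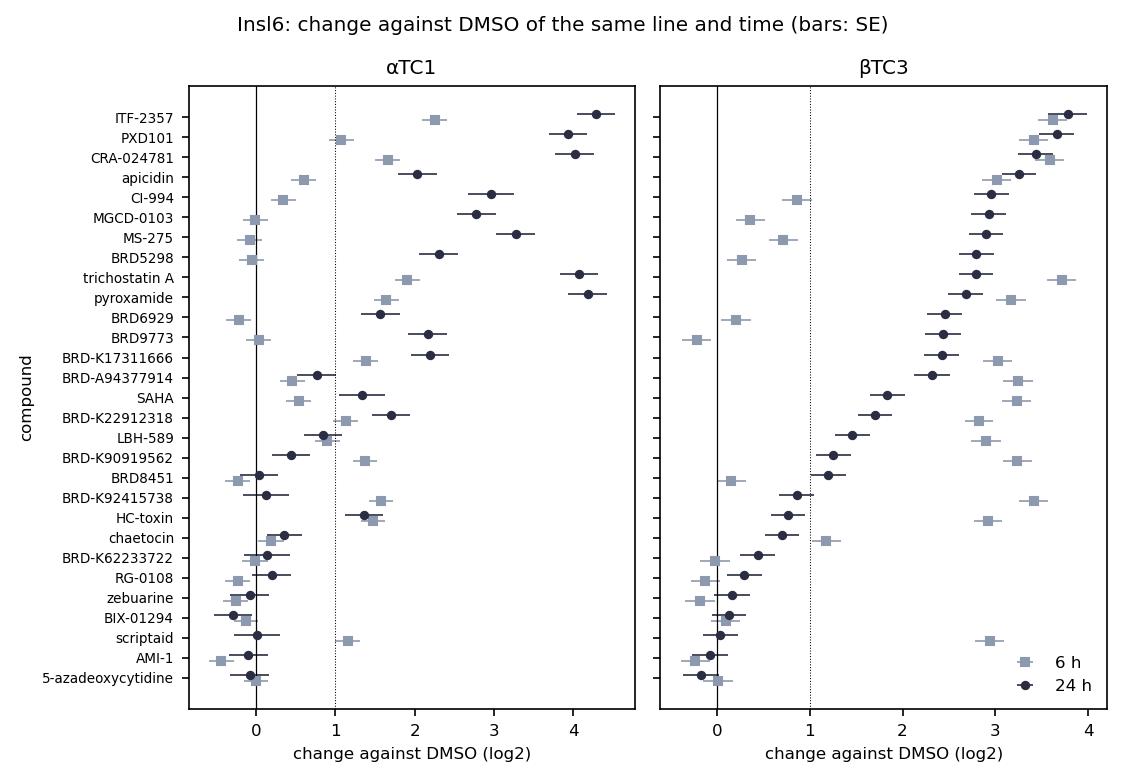
Insl6 change against DMSO (x axis, log2, bars SE) for each of 29 compounds (y axis, ordered by βTC3 at 24 h) in both lines, squares 6 h and circles 24 h, with a dotted line at 2-fold. ITF-2357 reaches 4.28 in αTC1 and 3.78 in βTC3 at 24 h, the anilides lie above 2-fold at 24 h and below it at 6 h, and scriptaid is back at 0.04 in βTC3.

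Nmb met the rule mostly in βTC3. There it was higher with 10 of 29 compounds at 6 h and 11 at 24 h, and in αTC1 with 0 and 2, the latter both being among the 11 of βTC3. Of the 8 hydroxamic acids 7 met the rule in βTC3 at each time. ITF-2357 arrays were at 6.84, 7.72 and 6.85 at 6 h and 7.86, 7.71 and 7.81 at 24 h, where DMSO reached 5.72 and 5.80. The changes were 2.04 ± 0.18 and 2.66 ± 0.21, the latter being 6.31-fold, and against DMSO of its own batch each array was higher by 2.45 to 2.60 at 24 h. Trichostatin A (2.47 ± 0.19), PXD101 (2.44 ± 0.19), CRA-024781 (2.32 ± 0.19) and the cyclic tetrapeptide apicidin (2.21 ± 0.19) met the rule as well at 24 h.

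None of the anilides met the rule for Nmb. At 24 h in βTC3 MS-275 was at 0.76 ± 0.19, MGCD-0103 at 0.66 ± 0.19 and CI-994 at 0.65 ± 0.19, and none had every array above DMSO. BRD-K92415738 gave 4.56, 7.53 and 7.36, so its first array lay within the DMSO range of 4.49 to 5.80 and the others above it, and its change of 1.28 ± 0.19 is a mean of unlike arrays. In αTC1 CRA-024781 gave 5.22, 5.10 and 5.01 at 24 h, all above the DMSO maximum of 4.05 (1.44 ± 0.13, or 2.71-fold). Nmb in αTC1 DMSO lay at the 37.7th percentile of all genes, and whether its probe set read above background there was not tested. ITF-2357 gave 4.83, 4.69 and 5.00 (1.24 ± 0.13). Just outside the rule was trichostatin A, with every array above DMSO at a change of 0.999.

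**Figure D3:**
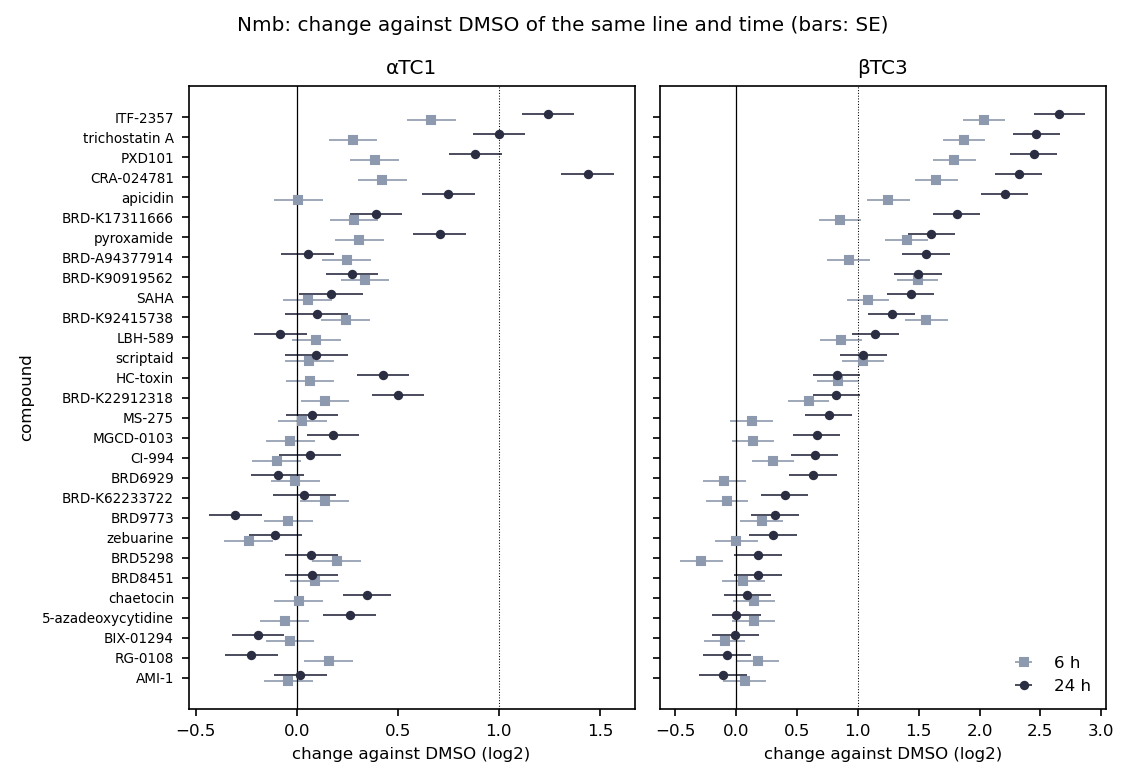
Nmb change against DMSO (x axis, log2, bars SE) for each of 29 compounds (y axis, ordered by βTC3 at 24 h) in both lines, squares 6 h and circles 24 h, with a dotted line at 2-fold. In βTC3 ITF-2357 reaches 2.66 at 24 h and the anilides lie below the dotted line, and in αTC1 the highest value is 1.44.

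Cga was higher in αTC1 at 24 h, from a DMSO level of 2.64 to 3.14. ITF-2357 arrays were at 7.29, 5.61 and 5.40, a change of 3.23 ± 0.21. No fold is given, since Cga in αTC1 DMSO lay at the 12.3rd percentile of all genes and whether its probe set read above background there was not tested. CRA-024781 gave 4.81, 5.59 and 4.58 (2.15 ± 0.22) and trichostatin A gave 3.85, 5.05 and 4.72 (1.59 ± 0.21). All arrays of these compounds lay above DMSO, as did those of pyroxamide, at 4.37, 3.59 and 4.53 (1.31 ± 0.22), and PXD101, at 3.30, 3.90 and 4.66 (1.10 ± 0.22). These 5 hydroxamic acids were the compounds that met the rule. Arrays of 1 compound differed widely: against DMSO of its own batch an ITF-2357 array was higher by 2.35 to 4.43 and a PXD101 array by 0.24 to 1.65. Chaetocin gave 4.82, 3.72, 3.03 and 3.24, 1 of them within the DMSO range, and a change of 0.65 ± 0.20.

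The anilides stood at -0.02 to 0.19 for Cga in αTC1 at 24 h. At 6 h in αTC1 the changes of all 29 compounds ran from -0.25 to 0.10, and in βTC3 at 24 h from -0.12 to 0.23, with no compound's arrays all above DMSO. The summed log2 level of the 7 pituitary markers in αTC1 at 24 h was 20.99 to 21.86 in DMSO, 20.95 to 22.47 with ITF-2357 and 20.53 to 21.22 with CRA-024781, and these ranges overlapped.

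Sst in αTC1 at 24 h met the rule with 3 compounds. ITF-2357 arrays were at 6.90, 6.54 and 4.89, against 3.47 to 4.68 in DMSO (2.18 ± 0.35, or 4.54-fold). Sst in αTC1 DMSO lay at the 43.8th percentile of all genes, and whether its probe set read above background there was not tested. Pyroxamide gave 5.96, 5.05 and 5.46 (1.58 ± 0.35) and CRA-024781 gave 4.96, 6.30 and 4.77 (1.43 ± 0.35). Just outside the rule, trichostatin A gave 5.18, 4.99 and 5.17, every array above DMSO at a change of 0.97 ± 0.35. The highest of these arrays was still far below βTC3, whose DMSO arrays at 24 h ran from 12.42 to 12.86. The anilides stood at -0.40 to 0.49.

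**Figure D4:**
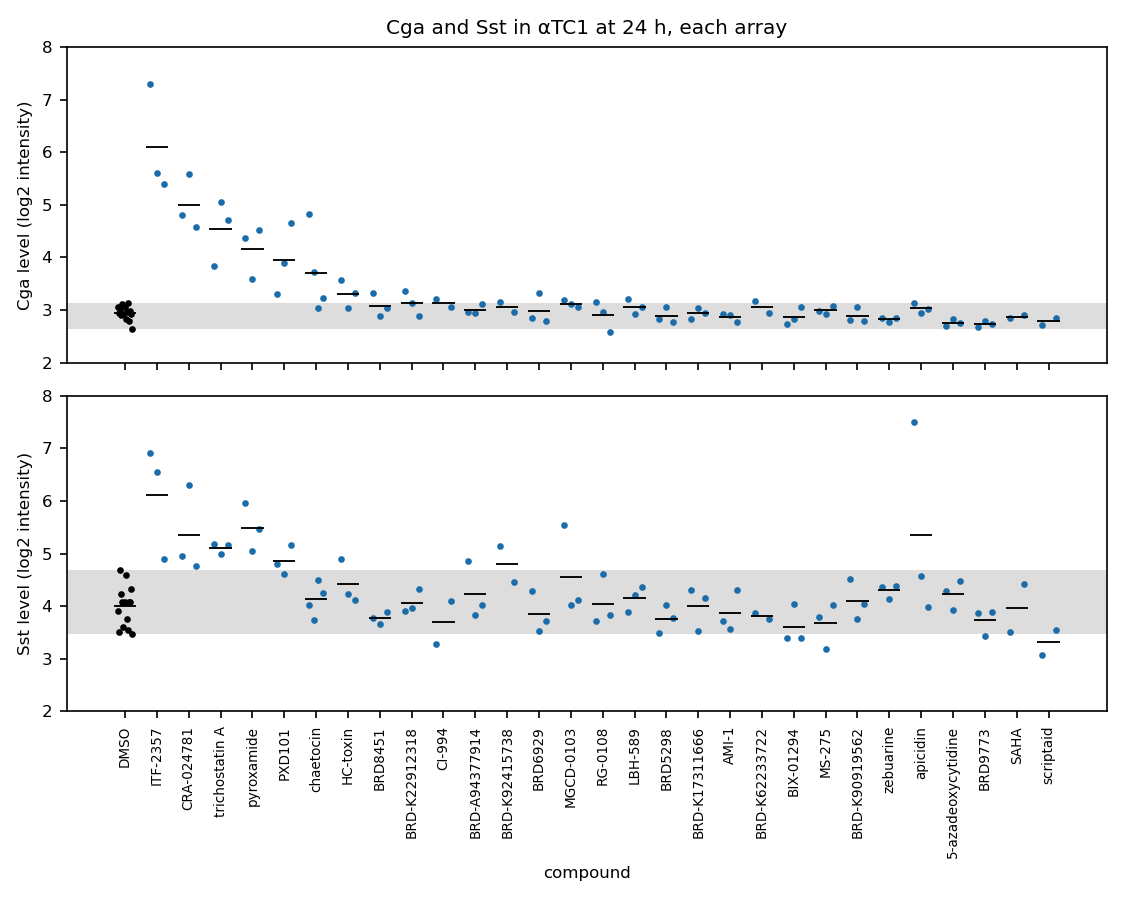
Levels of Cga and Sst in αTC1 at 24 h (log2 intensity), 1 point per array for each compound with the group mean as a black line and the DMSO range as a grey band. ITF-2357, CRA-024781, trichostatin A and pyroxamide lie above the band for both genes, and 1 apicidin array of Sst stands at 7.49.

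In αTC1 the level of Ins2 moved with those of Sst and Npy. Over the 299 αTC1 arrays Npy passed 6 on 5 arrays, and on all of them Ins2 was between 7.29 and 9.63, against a median of 4.12 over all arrays. Pearson's r was 0.70 between Sst and Ins2 and 0.74 between Npy and Ins2, a description across arrays that share batches and treatments. Ins2 was above 7 on 8 arrays, of which 4 were DMSO arrays.

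Apicidin at 24 h had 1 such array. Its arrays gave 7.49, 4.57 and 3.98 for Sst and 8.41, 5.09 and 4.10 for Npy, and the first of them had Ins2 at 9.07. Without that array, the change went from 1.20 to 0.10 for Sst and from 1.90 to 0.61 for Npy. The Sst changes with ITF-2357, pyroxamide and CRA-024781 were 1.79, 1.54 and 1.39 without the arrays with Ins2 above 7, and that of Cga with ITF-2357 was 2.61. Of these compounds that left out 1 ITF-2357 array and none of pyroxamide or CRA-024781. Ins2 ran from 3.37 to 5.78 in DMSO at 24 h. Pyroxamide arrays were within this range, at 3.76 to 5.21. CRA-024781 arrays had Ins2 at 6.29, 6.84 and 3.75, in the order of their Sst values above, so that 2 of the 3 lay above DMSO, among them the one with the highest Sst. ITF-2357 arrays had Ins2 at 7.85, 5.15 and 4.13, 1 of them above DMSO. The part of these Ins2 levels in the Sst values was not tested. Over all 5 measured beta cell markers the summed log2 level was 19.14 to 20.33 with pyroxamide, 19.94 to 24.19 with ITF-2357, 20.93 to 23.37 with CRA-024781 and 23.67 to 27.66 in DMSO. Within that sum the genes went different ways: G6pc2, at 8.15 to 9.31 in DMSO, was 4.14 to 5.02 with pyroxamide, 3.81 to 4.37 with ITF-2357 and 4.35 to 5.71 with CRA-024781, while Ins2 was above its DMSO range on 2 CRA-024781 arrays and 1 ITF-2357 array. Pdx1 counts in both the beta and the delta cell list. Over the 4 delta cell markers the summed log2 level was 21.78 to 22.45 with ITF-2357 and 22.29 to 22.78 with pyroxamide. With CRA-024781 it was 23.39 to 23.94, above the 20.99 to 22.71 of DMSO. It also lay above every DMSO array with 2 of the 3 anilides, at 23.05 to 24.61 with MS-275 and 23.06 to 23.35 with CI-994. Sst stood there at -0.40 ± 0.35 and -0.32 ± 0.42. With MGCD-0103, the remaining anilide, the delta marker sum overlapped the DMSO range and reached 23.72, and Sst stood at 0.49. The sum cleared DMSO as well with BRD5298 (22.94 to 23.58) and BRD6929 (22.84 to 23.01), where Sst stood at -0.15 and -0.07.

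**Figure D5:**
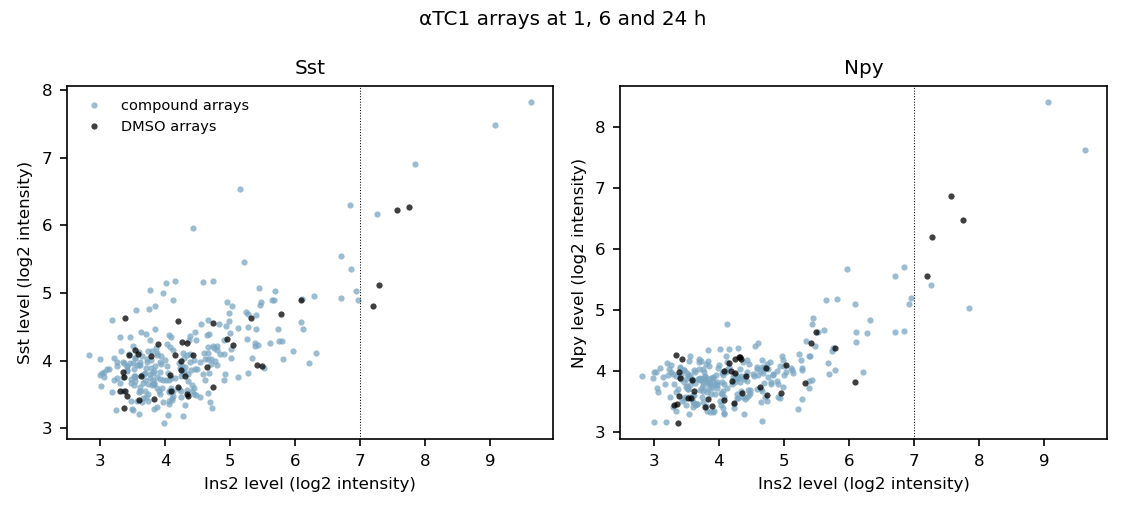
Sst and Npy against Ins2 on the 299 αTC1 arrays of all times (all axes log2 intensity), DMSO arrays in black, with a dotted line at the Ins2 level of 7. The 5 arrays with Npy above 6 all lie beyond the line.

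In βTC3 the log2 changes of Sst and Npy were small. At 24 h Sst was highest with PXD101 (0.28 ± 0.059), whose arrays at 13.12, 12.80 and 13.08 overlapped the DMSO range of 12.42 to 12.86. MS-275 (0.23 ± 0.058) and pyroxamide (0.21 ± 0.059) had every array above DMSO. Npy was lowest with ITF-2357, at 12.51, 12.58 and 12.52 against 12.79 to 13.15 in DMSO (-0.28 ± 0.054), the one compound with all arrays below.

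ITF-2357, pyroxamide and CI-994 were all given at 10 µM, so that 3 pairs per line could be compared for the 5 genes at 24 h. ITF-2357 and pyroxamide are hydroxamic acids and CI-994 is an ortho-amino anilide. Differences are log2 values with 95% intervals and, since these responses were known, no test. In αTC1 ITF-2357 minus pyroxamide was 1.92 (1.37 to 2.46) for Cga and 0.53 (0.20 to 0.86) for Nmb. For Insl6 it was 0.10 (-0.51 to 0.72), for Sst 0.61 (-0.28 to 1.49) and for Npy 0.70 (-0.24 to 1.63), intervals that hold 0 and also sizeable differences. In βTC3 it was 1.05 (0.55 to 1.56) for Nmb and 1.10 (0.61 to 1.58) for Insl6, where ITF-2357 was the higher, and -0.16 (-0.29 to -0.03) for Npy, where it was the lower.

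Set against the anilide, both hydroxamic acids were higher in αTC1 for 4 of the genes. ITF-2357 minus CI-994 was 3.04 (2.40 to 3.67) for Cga, 2.50 (1.47 to 3.54) for Sst, 1.33 (0.61 to 2.04) for Insl6 and 1.18 (0.79 to 1.56) for Nmb. Pyroxamide minus CI-994 was 1.90 (0.85 to 2.94) for Sst, 1.22 (0.50 to 1.95) for Insl6, 1.12 (0.48 to 1.76) for Cga and 0.64 (0.26 to 1.03) for Nmb. For Npy the intervals of both differences held 0, at 0.54 (-0.55 to 1.63) and -0.16 (-1.26 to 0.94). In βTC3 Nmb was again higher than with CI-994, by 2.01 (1.47 to 2.56) with ITF-2357 and 0.96 (0.44 to 1.47) with pyroxamide. Insl6 there differed from CI-994 by 0.82 (0.30 to 1.35) with ITF-2357 and by -0.28 (-0.77 to 0.22) with pyroxamide. Npy in βTC3 differed from CI-994 by -0.31 (-0.44 to -0.17) with ITF-2357 and by -0.15 (-0.28 to -0.01) with pyroxamide. Cga in βTC3 gave intervals that held 0 for all 3 pairs, such as -0.03 (-0.34 to 0.27) for ITF-2357 minus CI-994. Over all genes 2.34%, 21.4% and 15.2% passed limma's test in αTC1, for ITF-2357 against pyroxamide, ITF-2357 against CI-994 and pyroxamide against CI-994, and 16.3%, 20.8% and 12.8% in βTC3. These counts moved with the arrays left out. In αTC1 the first was 276 genes, and 129, 19 and 355 without the arrays numbered 1, 2 and 3. The second was 2526, and 1460 and 985 without those numbered 1 and 2, and the last 1789, and 1116 and 533. In βTC3 the first went from 1927 to 1113 and 933 without those numbered 1 and 2, the second from 2455 to 1404 without those numbered 3, and the last from 1511 to 950, 706 and 753 without those numbered 1, 2 and 3.

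The genes whose changes were most like those of each hormone gene were named by Pearson's r over the 87 compound and time groups of the line in which the gene varied more. These groups share DMSO arrays, and no p is given. Insl6 in βTC3 was most like Lipa (0.98), Cnn3 (0.98) and Mxi1 (0.98), and Nmb in βTC3 most like Man2b1 (0.96), Atox1 (0.95) and Aldh2 (0.93). Lipa and Man2b1 encode lysosomal enzymes. Cga in αTC1 was most like Prg4 (0.90), H3c15 (0.88) and Adh4 (0.88). For Sst in αTC1 the highest were Stat4 (0.72), Ins2 (0.71) and Adh4 (0.71), and for Npy Ins2 (0.75), Sst (0.69) and Nfil3 (0.55), so that the likeness was weaker for this pair. In αTC1 at 1 h, when some DMSO arrays had Ins2 above 7, the median change over the 29 compounds was -0.54 for Sst and -0.61 for Npy. The part of this shared shift, and of the apicidin array with high Ins2, in these r values was not tested.

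The nearest measured genes on either side of Insl6 are Jak2, which encodes a cytokine receptor kinase, and Plgrkt, a plasminogen receptor gene. With hydroxamic acids as a class at 6 h, Jak2 rose in αTC1 (0.74 ± 0.086, adjusted p = 6.71e-12, limma) and βTC3 (0.38 ± 0.069, adjusted p = 2.22e-06), as did Plgrkt (0.64 ± 0.057, adjusted p = 1.11e-16, and 0.44 ± 0.044, adjusted p = 1.65e-14), where 50.9% and 50.3% of all genes passed. At 24 h Jak2 rose in αTC1 with hydroxamic acids (0.93 ± 0.081, adjusted p = 1.99e-16, limma) and anilides (0.80 ± 0.11, adjusted p = 6.46e-09). Plgrkt passed there with neither class (0.11 ± 0.099, adjusted p = 0.366, and -0.05 ± 0.14, adjusted p = 0.834, limma). In βTC3, where Insl6 was high with both classes, Jak2 stood at -0.11 ± 0.050, adjusted p = 0.0563 and -0.08 ± 0.065, adjusted p = 0.382 (limma). With anilides at 6 h, where 26.6% and 29.4% of genes passed, Jak2 fell in αTC1 (-0.46 ± 0.12, adjusted p = 0.00157, limma) and in βTC3 (-0.61 ± 0.090, adjusted p = 6.57e-08). Plgrkt fell then in αTC1 (-0.51 ± 0.078, adjusted p = 1.24e-07, limma) and did not pass in βTC3 (-0.08 ± 0.057, adjusted p = 0.298). In βTC3 at 24 h Plgrkt fell with anilides (-0.20 ± 0.056, adjusted p = 0.00181, limma) and did not pass with hydroxamic acids (0.07 ± 0.043, adjusted p = 0.228). Next to Sst, the receptor transporter gene Rtp4 fell in βTC3 at 24 h with hydroxamic acids (-0.97 ± 0.12, adjusted p = 9.65e-11, limma) and anilides (-1.07 ± 0.15, adjusted p = 1.07e-08). At 6 h Rtp4 fell there with hydroxamic acids (-1.53 ± 0.12, adjusted p = 6.54e-18, limma) and did not pass with anilides (-0.26 ± 0.16, adjusted p = 0.262). In αTC1 at 24 h Rtp4 did not pass with either class (0.08 ± 0.083, adjusted p = 0.439, and -0.03 ± 0.12, adjusted p = 0.885, limma). Bcl6, on the other side of Sst, rose in αTC1 at 6 h with hydroxamic acids (0.39 ± 0.085, adjusted p = 5.91e-05, limma) and anilides (1.40 ± 0.12, adjusted p = 1.85e-16). At 24 h Bcl6 did not pass there (adjusted p = 0.0683 and 0.25, limma), and in βTC3 it fell (adjusted p = 0.0396 and 0.0425). The neighbours of Nmb, Zscan2 and Alpk3, did not pass with either class in either line at 24 h. Beside Npy, Mpp6 fell then in βTC3 with hydroxamic acids (-0.26 ± 0.044, adjusted p = 1.03e-06, limma) and anilides (-0.16 ± 0.058, adjusted p = 0.015), and did not pass in αTC1. Beside Cga, Zfp292 fell with hydroxamic acids in αTC1 (-0.28 ± 0.10, adjusted p = 0.0164, limma) and with both classes in βTC3 (adjusted p = 0.0376 and 0.00148). Their other neighbours, Stk31 and Mob3b, did not pass at 24 h.

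Other genes of the hormone pathway were tested with limma at 24 h, as the mean of each class against DMSO, in lists holding 93 measured genes. Over all genes 50.4% passed in αTC1 and 43.2% in βTC3 with hydroxamic acids, and 43.8% and 43.7% with anilides. Risers made up 26.1% and fallers 24.3% of all genes with hydroxamic acids in αTC1, and 22.5% and 20.7% in βTC3. With anilides these shares were 21.2% and 22.5% in αTC1, and 22% and 21.7% in βTC3. Hydroxamic acids were followed by 26 risers and 13 fallers among the 93 in αTC1, and by 9 risers and 19 fallers in βTC3. Anilides were followed by 21 risers and 11 fallers in αTC1, and by 23 and 9 in βTC3. The share of the 93 that passed was below that of all genes in each of these contrasts.

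Among receptors of the 5 hormones Sstr2, a somatostatin receptor gene, rose in all 4 contrasts. With hydroxamic acids it rose in αTC1 (0.99 ± 0.094, adjusted p = 5.57e-15, limma) and βTC3 (0.62 ± 0.079, adjusted p = 4.05e-10), and with anilides likewise (1.17 ± 0.13, adjusted p = 5.99e-12, and 1.26 ± 0.10, adjusted p = 1.2e-17). Of the 13 measured receptors it alone rose in αTC1 with either class, and the median change of the list there was -0.02 with hydroxamic acids. Sstr5, another somatostatin receptor gene, fell in βTC3 with hydroxamic acids (-0.36 ± 0.10, adjusted p = 0.0014, limma).

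Of 17 measured genes for prohormone processing and granules, 10 rose in αTC1 with hydroxamic acids and 2 fell, with a median change of 0.21 against 0.004 over all genes. With anilides 10 rose and 0 fell in each line, with medians of 0.34 in αTC1 and 0.23 in βTC3, where all genes had -0.01 and -0.02. In βTC3 with hydroxamic acids 1 rose and 5 fell (median -0.03). Scg3 and Chgb, which encode granins of the secretory granule, rose in αTC1 with hydroxamic acids (0.98 ± 0.060, adjusted p = 1.16e-23, and 0.96 ± 0.063, adjusted p = 4.08e-22, limma). The convertase gene Pcsk6 fell there (-1.10 ± 0.091, adjusted p = 2.39e-17, limma), and Pcsk1, which encodes a prohormone convertase of endocrine granules, fell in βTC3 (-0.60 ± 0.10, adjusted p = 1.9e-07, limma).

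Other hormone and neuropeptide genes moved singly. In αTC1 Nts, the neurotensin gene, rose with hydroxamic acids (1.22 ± 0.14, adjusted p = 7.94e-12, limma) and anilides (1.92 ± 0.19, adjusted p = 1.58e-13), and so did Cck, the cholecystokinin gene (0.82 ± 0.088, adjusted p = 6.31e-13, and 1.84 ± 0.12, adjusted p = 2.13e-21). They were among the 3 of 13 gut and islet hormone genes that rose with hydroxamic acids and the 5 that rose with anilides, while 1 fell with each. In βTC3 Gast, the gastrin gene, fell with hydroxamic acids (-0.71 ± 0.077, adjusted p = 1.57e-12, limma), where 1 of this list rose and 3 fell. Tac1, which encodes substance P, and Cartpt, the gene of the CART peptide, rose in βTC3 with anilides (1.47 ± 0.091, adjusted p = 2.32e-23, and 1.35 ± 0.10, adjusted p = 8.32e-20, limma), among 3 that rose and 1 that fell of 19 neuropeptide genes. Igf2, an insulin-like growth factor gene, rose in αTC1 with hydroxamic acids (1.30 ± 0.10, adjusted p = 2.89e-19, limma), among 3 that rose and 1 that fell of 14 pituitary and other hormone genes.

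Of 17 measured endocrine transcription factor genes, 8 fell in each line with hydroxamic acids, while 4 rose in αTC1 and 2 in βTC3, with median changes of -0.12 and -0.14. With anilides 7 fell and 3 rose in αTC1, and 6 fell and 2 rose in βTC3. Nkx2-2, a factor of islet cell identity, fell in all 4 contrasts, in αTC1 with hydroxamic acids (-1.35 ± 0.12, adjusted p = 1.35e-16, limma) and anilides (-1.93 ± 0.16, adjusted p = 8.46e-17) and likewise in βTC3 (-1.75 ± 0.10, adjusted p = 7.13e-25, and -1.69 ± 0.13, adjusted p = 2.06e-18). Pax6 and Pdx1, which act on islet hormone genes including Sst, fell in βTC3 with hydroxamic acids (-1.21 ± 0.072, adjusted p = 1.48e-24, and -1.06 ± 0.071, adjusted p = 5.97e-22, limma). Sst there started near the top of the array range and stood at 0.04 to 0.28 with the single hydroxamic acids. A link between these factors and the Sst values was not tested. Gata2, a factor of the pituitary cells that make Cga, rose in all 4 contrasts, the most with anilides in αTC1 (0.89 ± 0.10, adjusted p = 1.83e-11, limma) and βTC3 (0.94 ± 0.10, adjusted p = 1.59e-13). Cga with the single anilides stood at -0.02 to 0.19 and 0.05 to 0.23, and a link to Gata2 was not tested.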

How the data were processed

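RNA of 594 samples of αTC1 and βTC3 cells was measured on Affymetrix HT arrays. The authors deposited RMA intensities on a linear scale, per the submitters' processing notes and the value table; the RMA version is not given in the sources used here. Deposited values ran from 3.96 to 13635, and their log2 was taken here. Of 22716 probe sets 18003 had 1 gene symbol in the platform annotation, 287 several and 4426 none. The probe set with the highest mean stood for each of 11807 genes, of which 4150 had several, and each of the 5 hormone genes had 1.

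For each line and time, 1 model was fitted to all its arrays with limma 3.58.1 in R 4.3.3, including the 7 labelled batches as a term. Compounds of a class were averaged with equal weight. P-values were adjusted over all genes by Benjamini-Hochberg, with a threshold of 0.05. DMSO arrays of the 3 times were fitted together per line. The fits were tested on simulated data.

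The genes, lists and markers were chosen with earlier results of these data known. Named besides the 5 genes were, per pathway list, up to 4 genes called at 24 h by size of change, the 3 genes most alike, and the nearest measured neighbours. Pathway lists covered gut and islet hormones, neuropeptides, pituitary and other hormones, prohormone processing, receptors and transcription factors. Marker lists covered alpha, beta, delta, PP and epsilon, pituitary, germ, neuron, acinar and duct, and stroma and blood cells. The alternatives left out the batch term, took the array plate as a random block, used another normalization or centring, the mean of all probe sets, a filter on low genes or fewer groups in the fit, or left out arrays or compounds. The number of arrays limits the precision.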

Additional observations from a re-analysis of the deposited data

Results flagged for a closer look

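Nmb in αTC1 with chaetocin at 24 h had 1 array, at a log2 level of 4.23, that stood apart from its other 3, at 3.77, 3.72 and 3.69. The 2 groups of 4 to 10 arrays, this one and DMSO in βTC3 at 6 h, were checked for each of the 5 genes, 10 checks in all, of which chance marks about 1 in 20. Over 435 pairs of a gene, compound and time, 0 had all arrays of the lines moved in opposite directions.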

How the results depend on the processing

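Of the 93 values of the 5 genes that were at least 2-fold and clear of DMSO, 88 to 93 stayed so under each alternative, and 92 to 100 values met the rule. Some alternatives were weak checks. Each of the 5 genes has 1 probe set, so the mean of all probe sets could not change its values. Leaving out a replicate left fewer arrays that had to clear DMSO. Other pathway genes and the neighbours Jak2, Plgrkt and Rtp4 kept their call in 1795 of 1913 refits, lost it in 118 and reversed in 0. Bcl6, Mpp6 and Zfp292 were not among the refitted genes. For DMSO at 24 h against 1 h αTC1 gave 859 called genes and βTC3 1241, and without a batch term 360 and 598. Npy in βTC3, not called in either fit, went from 0.02 to -5.46e-05 there. Sst in αTC1 between 1 and 24 h was called (adjusted p = 0.0418, limma) only with genes below the median level left out, and otherwise had an adjusted p of 0.0508 to 0.384. That filter took the mean level over the arrays of both lines. Sst stayed in through its DMSO mean of 12.70 in βTC3, since that of αTC1, 4.13, lay below the median gene's 4.89. This call is therefore not read as support for a change. Among the pairs at 10 µM, ITF-2357 against pyroxamide in αTC1 gave 276 genes, 161 without a batch term, 0 with only these groups in the fit and 0 with a replicate block. Leaving out 1 replicate in turn gave 19 to 355 genes there, 985 to 2370 for ITF-2357 against CI-994 (2526 with all), and 533 to 1222 for pyroxamide against CI-994 (1789 with all). In βTC3 these ranges were 933 to 1437 (1927 with all), 1404 to 1745 (2455 with all) and 706 to 950 (1511 with all). Without a batch term ITF-2357 against pyroxamide gave 1214 genes in βTC3. The replicate block gave 636 genes for pyroxamide against CI-994 in βTC3, against 704 from the same arrays without it. Same-numbered arrays of the pairs correlated at -0.26 to 0.15, so the numbers were taken as names only. The cause of these shifts was not tested, but fewer arrays were in the fits that left some out. A batch-adjusted fit of only the compared groups was not run for the pairs with CI-994, since it could not be fitted. The filter on low genes left out Nmb, Cga and Insl6, so it gave no value for them.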
